A study of Mus musculus with 6 samples.

Results

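Gene expression at the maturation stage (Mat) of enamel formation was compared between Med1 knockout (KO) and control (CON) mice, with 1 array for each genotype. Tissue was micro-dissected from the lower incisors of C57BL/6 mice at 4 weeks of age, and each array held pooled tissue of 3 mice. KO mice carried 2 floxed Med1 alleles (MED1 fl/fl) and a Cre recombinase driven by the keratin 14 (K14) promoter, and CON mice were littermates with the same floxed alleles and no Cre. Cre acts only in epithelium that uses this promoter, so the connective tissue, vessels, bone cells and muscle left in a dissected piece keep Med1 in both genotypes. The array holds probes for 16593 genes with a symbol, and the members described here are all 9218 of them that either Mat array detected (detection p-value under 0.01, set against the control beads). Of these, 8092 were detected on both arrays, 863 in KO only and 263 in CON only. There is no second array of either genotype at this stage, so no spread between animals and no test can be given, and every difference describes 2 pools of tissue.

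Med1 is a subunit of Mediator, the complex through which transcription factors engage RNA polymerase II, and it is the main contact of Mediator with nuclear receptors. In the maturation stage ameloblasts degrade the enamel proteins they secreted before, take the fragments up and move calcium, phosphate, bicarbonate and iron so that the enamel crystals thicken and harden. The papillary layer beside them is rich in vessels, pumps and gap junctions.

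Values are normalized intensities on the log2 scale, and each difference is KO minus CON on that scale. A gene was called higher or lower in KO when the fold was at least 1.5 (0.58 on the log2 scale) with detection on the array where it was brighter. For a probe that the other array did not detect, that side was set to the lowest value detected on that array (6.19 in CON, 5.83 in KO) or to its own value if higher, and the difference is a bound, written as "at least". In 309 genes the bound pointed away from the array that detected the gene, and none of these was called or is given a difference. A gene detected on 1 array only enters through the side where it is bright, so it can hardly be called the other way, and for lists made mostly of such genes the counts and medians are descriptions that the detection rule partly fixes. In bulk tissue fewer cells of a type and less RNA per cell cannot be told apart. Across the detected genes, which are not independent replicates, the 2 arrays had a Pearson correlation of 0.864, and 46.1% of the probes in CON and 49.8% in KO were detected.

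Med1 itself had a log2 intensity of 9.15 in CON and 8.66 in KO, a difference of -0.49 that is under 1.5-fold. Whether its probe lies in the floxed exons is not given in the files. Of 26 detected Mediator subunits none was called higher and 1, Med27 (10.39 in CON, 9.64 in KO), was called lower, with a median of -0.20 beside -0.14 for all 9218 genes. Among markers of secretory ameloblasts, Amelx (15.17 and 15.01) and Ambn (15.26 and 15.21) were near the top of the range in both genotypes, Enam stood at 13.27 and 12.91, and the protease Mmp20 was lower (10.29 and 9.58). Of 7 detected markers of maturation ameloblasts 5 were lower in KO, 1 (Fam83h) was higher and 1 (Itgb6) was neither (median -1.55). Of the lower ones Slc26a4 was detected in CON only. Wdr72 of that list was detected on neither array. Krt14, whose promoter drove Cre, had 15.20 in CON and 15.08 in KO. Xist was detected on both arrays (9.02 and 7.84), as were the Y-linked Eif2s3y (9.44 and 8.97), Kdm5d (7.22 and 6.39) and Uty (6.98 and 6.06), all of them dimmer in KO, and the part of the sex of the pooled mice in other differences was not tested.

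Of the 9218 genes, 1163 (12.6%) were higher in KO and 1694 (18.4%) were lower, and 6361 were neither. The counts of each gene list in this report are to be read beside these 2 shares. The differences were lopsided in size. Among the higher genes 291 differed by 2 or more on the log2 scale and 97 by 4 or more, 75 of the 97 being genes detected in KO only, whereas 66 lower genes differed by 2 or more and 5 by 4 or more. The median of the higher genes was 1.17 and that of the lower genes -0.86. At a stricter fold of 2 the balance turned, with 679 genes (7.37%) higher and 586 (6.36%) lower. Lower calls made up a larger share of the dimmer genes. The detected genes were ranked by level into 4 equal bins. Lower calls were 19.7% and 22.8% of the 2 dimmest bins and 16.3% and 14.8% of the 2 brightest. Higher calls were 9.0% and 14.4% of the 2 dimmest and 14.0% and 13.1% of the 2 brightest. The value set for an undetected side was higher in CON (6.19) than in KO (5.83). Of 863 genes detected in KO only 513 were neither, as were 99 of 263 detected in CON only. The shares thus depend in part on that rule.

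**Figure D1:**
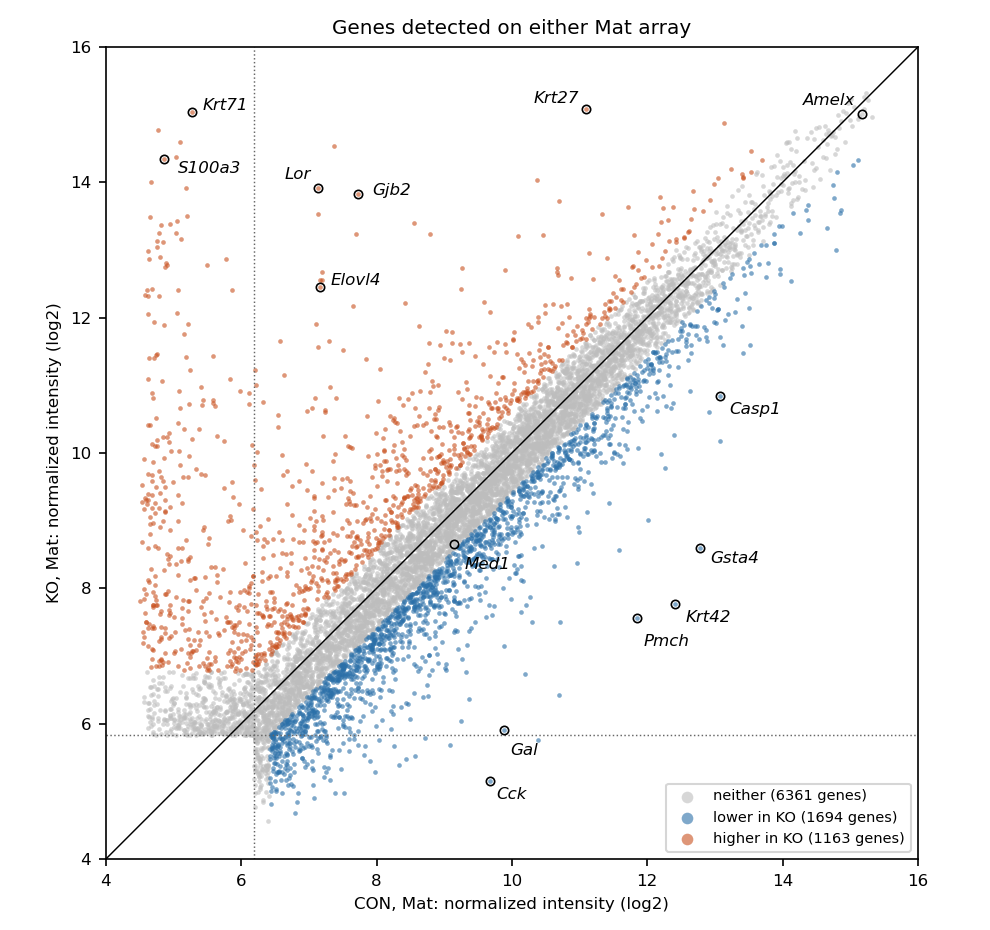
Normalized intensity (log2) of each detected gene on the CON Mat array (x axis) and the KO Mat array (y axis), 1 point for each of 9218 genes, colored by call, with the line of equal values and, dotted, the lowest detected value of each array (6.19 and 5.83). The 1163 genes higher in KO reach far above the line, many of them from below the detection limit of CON, while most of the 1694 lower genes lie in a narrow band under it.

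Genes of hair and cornified epithelium held many of the large differences upward, and 46 of the 97 genes higher by 4 or more lay outside the lists of keratins, keratin-associated proteins and envelope genes. Krt71, a keratin of the inner root sheath of the hair follicle, had 5.28 in CON, not detected, and 15.04 in KO, a difference of at least 8.85. Krt34, a hair shaft keratin, had 4.77 and 14.77 (at least 8.58), and S100a3, a calcium-binding protein of the hair cuticle, had 4.86 and 14.35 (at least 8.16). Each of these probes was near background in CON and among the brightest in KO. Of 24 detected keratin-associated proteins, which cross-link hair keratins, 23 were higher in KO and none lower (median 5.23), and all 24 were detected in KO only. Their summed level on the linear scale was 840 in CON and 92853 in KO. Of 38 cornified envelope genes that were detected, 34 were higher (median of all 38, 3.65) and 1, Serpinb12, was lower (9.52 and 7.92). Of the 38, 22 were detected in KO only, and the detection rule left those without the chance of a lower call. Several of the other envelope probes were already above background in CON. Among them were Lor, the main envelope protein (7.13 in CON, 13.91 in KO), and Lgals7, a lectin of stratified epithelia (7.14 and 13.53). Krtdap, a secreted protein of differentiating keratinocytes, was another (7.70 and 13.23). Krt27, another root sheath keratin, had 11.10 in CON and 15.09 in KO, so its probe was well above background before it differed by 3.99. The lists of hair and envelope genes share members with those the study chose on these arrays, and their counts are not independent evidence of a direction.

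Not all keratins went the same way. Of 21 detected keratins outside the hair lists 9 were higher in KO and 5 lower. Krt42, a type I keratin, had the largest downward difference among genes detected on both arrays (12.41 in CON, 7.77 in KO, -4.65). The simple-epithelium keratin Krt8 was lower (9.22 and 8.17), as was Krt16, which wounded skin uses (11.30 in CON, -1.30), and Krt76 of oral mucosa was detected in CON only (7.60 and 5.78, a difference of at least -1.77). Krt23 (5.04 and 13.25), Krt79 (4.68 and 12.43) and Krt10 of suprabasal epidermis (10.37 and 14.04) were higher. Krt5, the basal partner of Krt14, had 12.67 and 12.29, within 1.5-fold.

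Some genes with the same call lay side by side. Runs of 4 or more neighbours with 1 call numbered 33 and held 172 genes, a small part of the called genes, and the number that chance would give was not computed. In the order of the GRCm38.p6 assembly, counting detected genes only, 15 neighbours on chromosome 11 from Krtap1-5 to Krt15 were all higher in KO (median 6.22), as were 8 on chromosome 3 from Sprr1b to Lce1d (median 4.73) and 7 keratin-associated protein genes on chromosome 16 (median 6.13). On chromosome 7, 6 kallikreins in a row (Klk11, Klk10, Klk8, Klk7, Klk6 and Klk5) were higher with a median of 3.18, whereas Klk4, the enamel protease of the same family, was lower (14.38 in CON, 13.45 in KO). Klk7, a protease that sheds cornified cells, had 4.89 in CON, not detected, and 12.81 in KO. Neighbours that were lower included 8 genes on chromosome 5 with Sparcl1, Ibsp and Mepe (median -1.01), Ibsp and Mepe being members of the family of secreted mineral-binding phosphoproteins, and 5 on chromosome 10, namely Ddt, Gstt3, Gstt1, Gstt2 and Mif (median -1.08). Related neighbours can share sequence, and whether their probes cross-hybridize was not tested.

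Promoters were read from RefSeq sequences of GRCm38.p6, which covered 7440 of the 9218 genes (250 bases before to 50 after the start). The motif TATAAA, searched on the gene's strand only and lying between 45 and 15 bases before the start, was in 2.0% of the 7440 promoters and in 2.4% of all 27025 promoters of the table. It was in 32.5% (26 of 80) of promoters of genes higher by 4 or more, in 16 of 146 of those higher by 2 to 4, in 3.2% of those higher by less than 2, in 1.1% of genes that were neither and in 2.2% of lower genes. Among genes higher by 4 or more and outside the keratin and envelope lists it was in 5 of 33 (15.2%). The number of CpG pairs ran the other way. Its median in the 300 bases was 4 for genes higher by 4 or more and 20 for all detected genes. It was 7 for all 27025 promoters of the table, 18 for lower genes and 9.5 for genes lower by 2 or more. Promoters of genes higher by 4 or more had a median GC content of 50.8%, against 60.7% for all detected genes and 52.7% for the whole table. Both medians of these genes were thus nearer to the whole table than to the detected genes. TATAAA holds no G or C, so the motif and the base composition cannot be told apart. TGANTCA, the site of AP-1 factors, was searched on both strands of the whole 300 bases. It was in 23.8% of genes higher by 4 or more, 5.5% of all detected genes and 5.9% of lower genes. The whole table had it in 7.9%. Among genes higher by 4 or more and outside the keratin and envelope lists it was in 6 of 33 (18.2%). It was in 32.4% of promoters of the envelope list and in none of the 6 promoters of hair shaft keratins. The part of base composition in these shares was not tested. GCCNNNGGC, the site of AP-2 factors, was searched in the same way. It was in 17.5% of genes higher by 4 or more, 25.3% of all detected genes, 27.9% of lower genes and 16.5% of all promoters of the table. Among genes higher by 4 or more and outside the keratin and envelope lists it was in 30.3%. Its fixed letters are all G or C, so this motif and the base composition cannot be told apart either. A match is a description of letters, not a bound site.

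The 60 bases before the start of some of the named genes are shown, first those with the motif (TATAAA in capitals) and then those without it. The hair and envelope genes shown all hold the motif. S100a3 of the hair cuticle and Lgals7 of the envelope list, also higher in KO, do not hold it and are not printed. Krt71 (chr15:101743098-101743157, minus strand), Krt34 (chr11:100041555-100041614, minus), Krt73 (chr15:101802361-101802420, minus), Lor (chr3:92083143-92083202, minus) and Krtdap (chr7:30787845-30787904, plus) were higher in KO. Pmch (chr10:88091012-88091071, plus) was lower. Without the motif, Elovl4 (chr9:83806306-83806365, minus) and Gjb2 (chr14:57104703-57104762, minus) were higher, and Gal (chr19:3414545-3414604, minus) and Gsta3 (chr1:21240525-21240584, plus) were lower. All are from GRCm38.p6.
Krt71: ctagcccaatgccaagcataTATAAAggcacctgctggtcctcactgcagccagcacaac
Krt34: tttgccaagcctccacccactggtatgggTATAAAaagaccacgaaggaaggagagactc
Krt73: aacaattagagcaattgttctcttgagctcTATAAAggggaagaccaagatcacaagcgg
Lor: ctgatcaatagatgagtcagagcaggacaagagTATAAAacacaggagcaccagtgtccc
Krtdap: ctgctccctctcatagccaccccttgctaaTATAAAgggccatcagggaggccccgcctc
Pmch: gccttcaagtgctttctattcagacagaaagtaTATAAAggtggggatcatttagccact
Elovl4: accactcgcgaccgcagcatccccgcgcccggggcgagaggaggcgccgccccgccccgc
Gjb2: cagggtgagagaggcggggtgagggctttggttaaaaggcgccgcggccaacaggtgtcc
Gal: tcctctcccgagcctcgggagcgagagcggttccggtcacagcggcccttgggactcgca
Gsta3: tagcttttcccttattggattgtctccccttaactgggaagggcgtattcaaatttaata
The motif began 40 bases before the start in Krt71 and 27 to 31 bases before it in the other 5 genes that had it. It was thus present in genes of hair shaft, root sheath, envelope and a neuropeptide, and Pmch is a lower gene that held it.

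**Figure D2:**
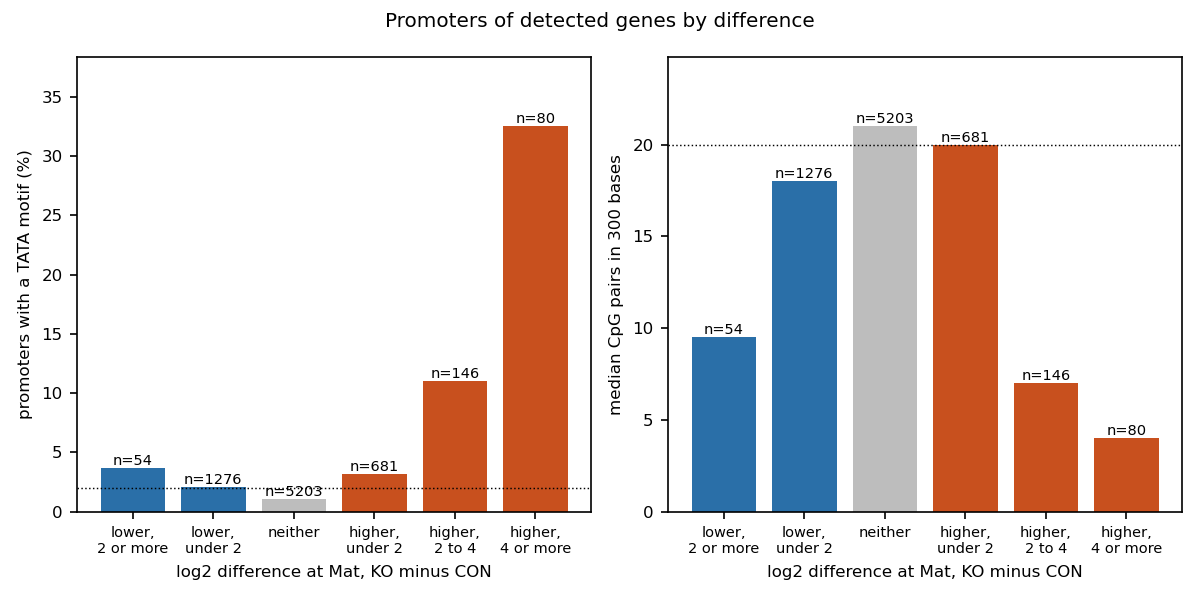
Share of promoters with TATAAA 45 to 15 bases before the start (left, percent) and median number of CpG pairs in the 300 bases (right) for detected genes grouped by log2 difference at Mat, with the number of promoters above each bar and all 7440 promoters as a dotted line. The share rises to 32.5% and the CpG number falls to 4 in genes higher by 4 or more. For all 27025 promoters of the table, not drawn, they were 2.4% and 7.

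Genes of ion transport at the maturation stage were more often lower than higher in KO, as were all detected genes (18.4% lower, 12.6% higher). The shares lower were 48.0% for pH regulation and anion transport, 45.5% for sodium and potassium, 40.0% for calcium and 37.5% for iron. Of 25 detected genes of pH regulation and anion transport 12 were lower, 4 higher and 9 neither (median -0.58). Slc26a7, a chloride and bicarbonate exchanger, had 9.89 in CON and 7.15 in KO (-2.74), and Slc26a4, an exchanger of the same family, had 8.04 and, not detected, 5.76 (a difference of at least -2.21). Cftr, the chloride channel of cystic fibrosis, had 11.55 and 9.98, and Car2, a carbonic anhydrase that makes bicarbonate, 10.66 and 9.10. The sulfate transporter Slc26a1 had 8.24 and 6.26. Those higher included Clic3, a chloride channel protein (7.32 and 10.98), and Slc4a1, the anion exchanger of red cells (8.88 and 10.50). Of 22 detected pumps and channels for sodium and potassium 10 were lower and 3 higher (median -0.51), with Slc12a7, a potassium and chloride cotransporter (9.34 and 7.16), and the calcium-gated potassium channel Kcnn4 (10.98 and 8.90) among the lower and Kcne1, a channel subunit, detected in KO only (4.96 and 10.03). A second Kcne1 probe had a difference of 0.13, the widest disagreement between detected probes of any gene. Calcium handling was lower in 8 of 20 detected genes and higher in 2, and the lower ones included the store calcium sensor Stim1 (11.61 and 10.83), the channel pore it opens, Orai1 (10.32 and 9.58), the release channel Itpr2 (11.81 and 10.62) and the store pump Atp2a2 (13.04 and 12.13). Trpv6, a calcium channel of absorbing epithelia, was detected in KO only (6.14 and 8.08, at least 1.89). Iron genes were lower in 9 of 24 and higher in 1, with Tfrc, the transferrin receptor, lower (14.79 in CON, -1.79) and the ferritin chain Fth1 within 1.5-fold at 15.32 and 14.97. The higher one, Slc11a1, had probes that disagreed, with differences from -1.03 to 0.80. Phosphate was not covered by a list, and the transporters Slc34a2 (10.13 and 7.65) and Xpr1 (13.41 and 11.48), chosen after their values were seen, were both lower. Of the 33 genes of the dental list that the study chose on these arrays, 22 were lower and none higher, which is not independent evidence. The other 11 were neither, although the study lists them as down-regulated. Atp1b1 (-0.27), Slc40a1 (-0.48) and Sp6 (0.14) were among these.

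Enzymes of glutathione and antioxidant defence differed by subfamily. Of 55 detected genes 21 were lower in KO, 7 higher and 27 neither (median -0.41). All 4 alpha-class glutathione transferases with a symbol in the list were lower: Gsta4 had 12.78 in CON and 8.59 in KO (-4.19), Gsta3 10.71 and 7.50 (-3.21), Gsta1 9.09 and, not detected, 5.69 (at least -3.26), and Gsta2 8.43 and, not detected, 5.48 (at least -2.60). These enzymes conjugate glutathione to reactive lipids and drugs, and their near-identical sequences mean that a probe may read more than its own gene. Gpx2, an epithelial glutathione peroxidase, had 12.91 and 10.61, Gpx3, the secreted form, 14.87 and 13.59, and Hmox1, the stress-induced heme oxygenase, 10.55 and 9.03. Nfe2l2, the transcription factor that drives many of them, had 8.95 and 7.95. Nqo1, a further target, had 8.73 and 7.94, and both were chosen after their values were seen. On the other side stood the mu-class Gstm1 (8.40 and 9.16) and Gstm5 (10.46 and 11.13), the microsomal Mgst1 (9.59 and 12.23) and Mt4, a metallothionein of stratified epithelium that was detected in KO only (5.99 and 10.91). The other metallothioneins Mt1 (15.04 and 14.25) and Mt3 (7.43 and 6.26) were lower. Gclc and Txnrd1 of this list were detected on neither array. Of 26 detected genes of xenobiotic and aldehyde metabolism 10 were higher, among them Cyp2g1 (4.69, not detected, and 10.81), and 5 lower, among them the aldo-keto reductases Akr1c18 (13.07 and 10.18) and Akr1b8 (8.21 and 6.19).

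Several of the genes with large downward differences encode secreted peptides, cytokines or enzymes. Pmch, the precursor of melanin-concentrating hormone, had 11.85 in CON and 7.56 in KO (-4.28). Gal, the galanin precursor, had 9.88 and 5.91 (-3.97), close to the detection limit in KO. Cck, the cholecystokinin precursor, had 9.67 and was not detected in KO (5.16, a difference of at least -3.84). There was no list of such peptides, and Npy, the precursor of neuropeptide Y, went the other way, being detected in KO only (4.74 and 7.83, at least 1.63). Il11, a cytokine of the interleukin 6 family, had 9.36 and 6.36, and Fgg, the gamma chain of fibrinogen, had 10.69 and 6.43. Spink8, a Kazal-type protease inhibitor, had 10.20 and 6.74, and Hs3st3a1, a sulfotransferase that modifies heparan sulfate, had 11.58 and 8.56. Lrat, which esterifies retinol for storage, was detected in CON only (8.57 and 5.52, a difference of at least -2.74), while Stra6, the receptor that takes retinol up, was higher (7.05 and 9.74). The 2 sequences known only by clone names among the largest downward differences were D930020B18Rik (9.25 and 6.04) and D630023F18Rik, detected in CON only (10.39 and 5.76, a difference of at least -4.57).

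**Figure D3:**
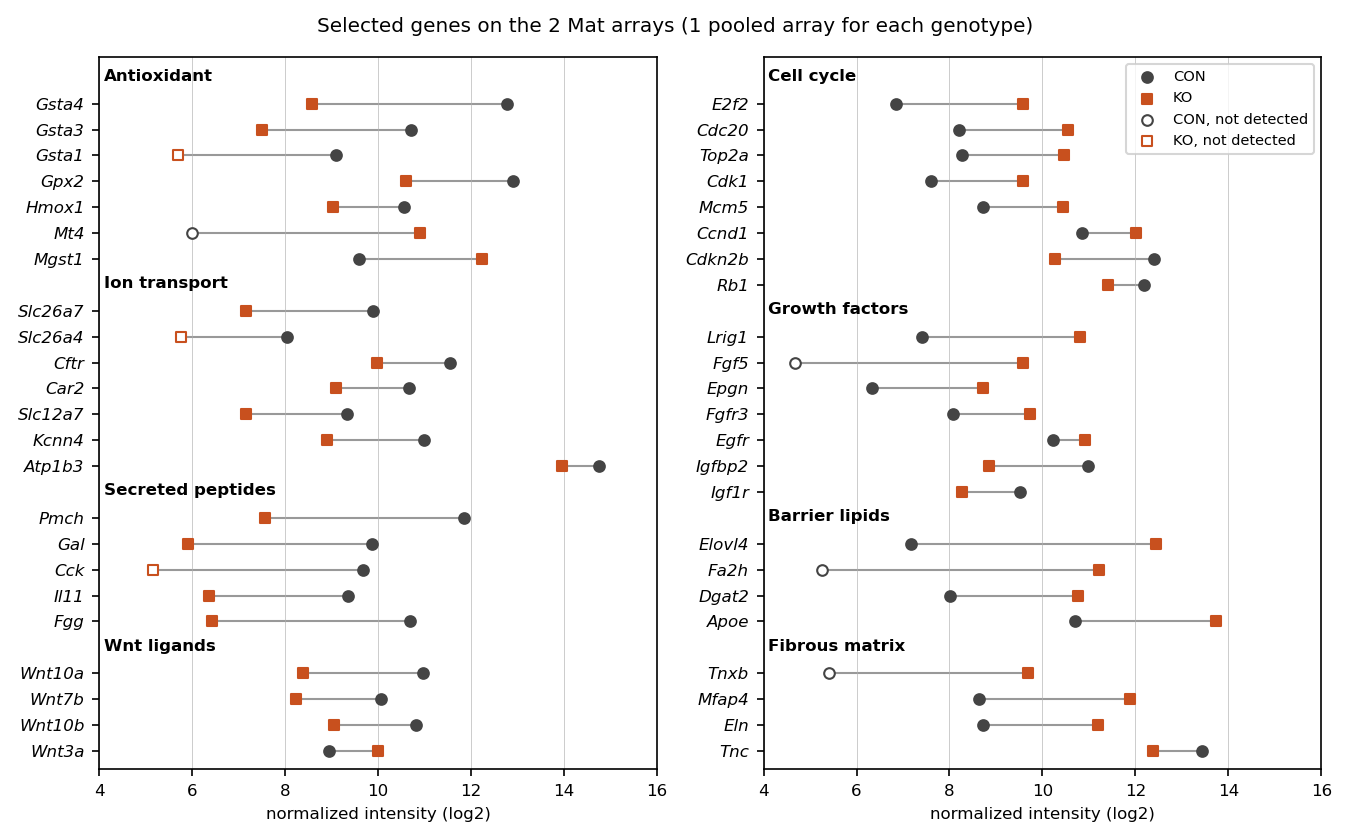
Normalized intensity (log2, x axis) of selected genes in CON (circles) and KO (squares), 1 pooled array each, grouped by function, with open symbols where the probe was not detected. Antioxidant, ion transport, peptide and Wnt genes on the left lie mostly lower in KO, with the exceptions Mt4, Mgst1 and Wnt3a. The cell cycle, growth factor, lipid and fibrous matrix genes picked for the right lie mostly higher. The exceptions there are Cdkn2b, Rb1, Igfbp2, Igf1r and Tnc. Unlike these picks, the lists of collagens, matrix proteases, and proteoglycans and elastic fibre genes had more lower than higher members. So did those of BMP and TGF-beta signaling and of IGF binding protein and CCN genes.

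Most cell cycle genes were higher in KO. Of 51 detected genes of the cell cycle and DNA replication 36 were higher, 3 lower and 12 neither, with a median of 0.99 and a summed level of 42527 in CON and 57225 in KO. E2f2, a transcription factor of the S phase program, had 6.85 and 9.59 (2.74). Cdc20, which activates the anaphase-promoting complex, had 8.20 and 10.54, Top2a, the topoisomerase of dividing cells, 8.28 and 10.46, and the mitotic kinase Cdk1 7.61 and 9.58. Members of each phase were higher, from the replicative helicase (Mcm5, 8.73 and 10.44) and nucleotide synthesis (Tk1, 7.49 and 9.62) to the kinetochore (Cenpa, 10.49 and 12.19) and cytokinesis (Kif23, 7.05 and 8.33). Ccnd1, the cyclin of G1, had 10.85 and 12.01. The 3 lower genes are all brakes on the passage from G1 to S phase. Cdkn2b, an inhibitor of cyclin D kinases, had 12.40 and 10.26 (-2.14), Cdkn1b 7.26 and 6.35 and the retinoblastoma gene Rb1 12.19 and 11.40. The other inhibitors Cdkn1a (13.02 and 12.94) and Cdkn1c (12.34 and 12.22) were within 1.5-fold. Pcna, often used to stain dividing cells, was near the floor on both arrays (5.95, not detected, and 6.15), so its probe gives no difference. None of the 42 promoters of this list in the RefSeq table held the TATA motif.

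Growth factor pathways differed member by member. Of 23 detected genes of FGF and EGF signaling 11 were higher and 4 lower (median 0.51). The ligands Fgf5, which ends the growth phase of hair (4.68, not detected, and 9.58), and Fgf22 (5.41, not detected, and 7.73) were detected in KO only, Epgn, a ligand of the EGF receptor, had 6.34 and 8.73, and Lrig1, a brake on that receptor and a marker of epidermal stem cells, had 7.40 and 10.81 (3.40). The receptors Fgfr3 (8.08 and 9.74) and Egfr (10.22 and 10.92) were higher, and Fgfr1 (9.13 and 8.05) and the ligand Fgf1 (10.12 and 8.92) lower. In the Wnt pathway 11 of 49 were higher and 10 lower, and the median was -0.09 and came to 0.00 when the probes of a gene were averaged. The split followed the ligands in part, with Wnt10a (10.96 and 8.38), Wnt7b (10.06 and 8.23), Wnt10b (10.81 and 9.06), Wnt4, Wnt5a and Wnt7a lower and Wnt3a (8.95 and 9.99) higher. Wnt10a is required for teeth and hair in humans and mice. Axin2 and Notum, which are feedback inhibitors of the pathway, were higher (8.68 and 9.93, 6.89 and 7.60), as was its transcription factor Lef1 (5.56, not detected, and 7.65), and the antagonist Sfrp4 was detected in CON only (8.26 and 5.67). Of 38 detected genes of BMP and TGF-beta signaling 13 were lower and 3 higher (median -0.36), with the activin subunits Inhba (11.20 and 9.41) and Inhbb (10.79 and 9.20), Tgfb1 (9.63 in KO, -1.38) and Smad3 (10.92 and 9.54) lower and Gdf10 (7.30 and 8.72) higher. Of 17 detected IGF binding protein and CCN genes, with their ligands and receptors, 10 were lower and 3 higher (median -0.64). Igfbp2 had 10.99 and 8.84 (-2.15), Igf1r 9.51 and 8.27 and Igf1 9.84 and 8.80, while Igfbp6 (6.52 and 8.18) and Dlk1 (6.92 and 8.68) were higher and Igf2 was level (13.07 and 13.06).

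Among transcription factors, 22 of 39 detected genes of hair and epidermis were higher and 4 lower (median 1.02). Of these 39, 12 were detected in KO only, and the detection rule left those without the chance of a lower call. Of 24 detected dental epithelial factors 2 were higher and 7 lower (median -0.24). Grhl1, which controls desmosome genes in epidermis, had 7.17 and 12.55 (5.38), and its second probe differed by 2.85. Egr2, an early response factor also used by Schwann cells, had 6.22 and 11.01. Elf5 (6.32 and 8.62), Zfp750 (8.99 and 11.40) and Nfib (8.83 and 10.99) were higher as well. Nkx2-3 (11.58 and 10.13), Pitx1 (7.20 and 6.00), Isl1 (12.64 and 11.59) and Dlx2 (10.59 and 9.93), factors of early tooth fields, were lower, while Msx2 (9.65 and 9.80), Sp6 (12.37 and 12.51), Sox21 (13.14 and 12.99) and Trp63 (13.17 and 12.74) were within 1.5-fold. Of 14 detected Hox genes 12 were higher, none was lower and 13 were detected in KO only (median 2.23), so the detection rule left nearly all of them without the chance of a lower call. Hox genes set position along the trunk and are usually silent in the jaw. Of these, 5 were neighbours on chromosome 11, from Hoxb7 (4.54, not detected, and 9.53) to Hoxb2 (5.22, not detected, and 8.43), and Hoxd8 had 5.52, not detected, and 8.74. The 24 of 38 Hox genes with a probe that were detected on neither array count as members that could not be measured.

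Of 35 detected genes of fatty acid and barrier lipid synthesis 13 were higher and 5 lower (median 0.46), and 12 were detected in KO only. Elovl4, which makes the very long acyl chains of skin ceramides, had 7.17 and 12.45 (5.28), Fa2h, which hydroxylates them, 5.25, not detected, and 11.22, and Dgat2, a triglyceride enzyme, 8.02 and 10.77. Cers2, a ceramide synthase, was lower (12.98 and 12.39). Apoe, a lipid carrier, had 10.69 and 13.73, and its chromosome 7 neighbours Apoc1 (6.58 and 11.66), Nectin2 and Bcam were higher too. Of 25 detected genes of the citrate cycle and pyruvate entry 11 were lower and 1, Pdk4, was higher (median -0.41), with Idh3a at 10.94 and 9.63 and the citrate carrier Slc25a1 at 11.92 and 10.63. Ppargc1a, the coactivator that raises mitochondrial genes, had 9.39 and 7.42 (-1.97). Of 74 detected subunits of oxidative phosphorylation 12 were lower and 1 higher (median -0.32), which is 16.2% lower beside 18.4% of all genes, and the lower members numbered 9 to 26 across alternatives in normalization and probe rule. Sdhd, a subunit of complex II, had 8.99 and 7.63. Of 32 detected genes of fatty acid oxidation and the peroxisome 4 were lower and 2 higher, with a median of -0.10 that was 0.00 for the mean of probes. Cytosolic ribosomal proteins had 10 of 55 higher and 1 lower (median 0.33), and mitochondrial ribosomal proteins 1 of 69 higher and 2 lower (median -0.08). Of the proteasome 1 of 37 was higher and 1, the immune subunit Psmb10, was lower, and the median of 0.18 became -0.01 with the arrays scaled to a common median.

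**Figure D4:**
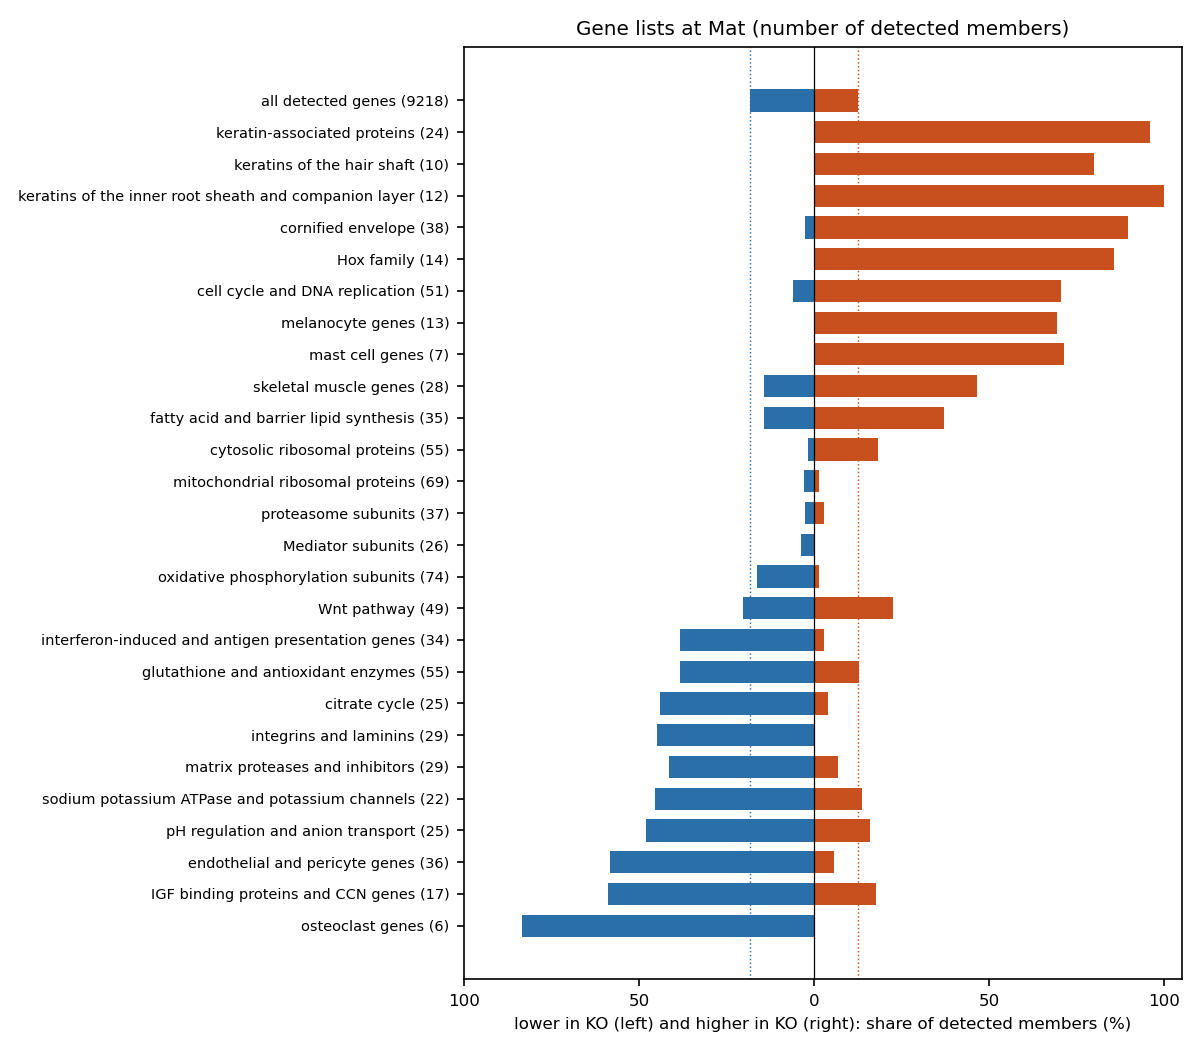
Share of detected members called higher (right, orange) or lower (left, blue) in KO at Mat for 26 gene lists, with the number of detected members in brackets and, dotted, the shares of all 9218 genes (12.6% and 18.4%). Hair, envelope, Hox and cell cycle lists extend to the right, transport, matrix, endothelial and osteoclast lists to the left, and the mitochondrial ribosomal, proteasome and Mediator lists stay short on both sides.

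Adhesion genes differed by kind. Of 29 detected integrins, laminins and linked proteins 13 were lower and none was higher (median -0.50). Itga6, which with Itgb4 anchors epithelium to the basement membrane, had 8.86 and 7.12 (-1.74), Itgb1 8.79 and 7.81 and Lamb1 7.62 and 6.10. The probe of Itgb4 was within 1.5-fold (12.68 and 12.23). Itgb7, an integrin chain of leukocytes, was detected in CON only (8.72 and 5.79, a difference of at least -2.89). Of 27 detected collagen chains 7 (25.9%, beside 18.4% of all genes) were lower and 1, Col4a5, was higher (6.97 and 8.30). Col5a2 stood at 8.92 and 7.43, and Col1a1 was level at 14.66 and 14.56. Matrix proteases and their inhibitors were lower in 12 of 29 and higher in 2 (median -0.56), with Mmp13 at 14.65 and 13.33, Mmp9 at 12.34 in CON (-1.34) and Timp1 at 12.28 and 10.70. Proteoglycans and elastic fibre genes did not share one direction. Of 39, 6 were higher (15.4%, beside 12.6% of all genes) and 10 lower (25.6%, beside 18.4%). Elastin (Eln, 8.72 and 11.20), its microfibril proteins Mfap4 (8.63 and 11.88) and Mfap5 (4.87, not detected, and 9.13) and Tnxb (5.41, not detected, and 9.69) were higher, and Tnc (13.44 and 12.37), Gpc1 (14.76 and 13.77) and Has3 (9.14 and 7.83) lower. Of 28 detected genes of desmosomes, gap and adherens junctions 9 were higher and 6 lower (median -0.15), with the desmosome plaque protein Pkp3 at 10.03 and 11.79 and the cell adhesion protein Nectin3 at 13.40 and 11.88. Gjb2, a connexin of stratified epithelium, had 7.73 and 13.83 (6.11), and Gja1, the connexin of ameloblasts and odontoblasts, was within 1.5-fold at 15.03 and 14.83. Tight junction genes had 5 of 18 higher, with Cldn4 at 9.90 and 12.71, and 3 lower, with Tjp1 at 9.40 and 7.86, and a median of 0.01 that was -0.06 with common-median scaling.

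Among innate immune and cell death genes, Casp1, the protease of the inflammasome, had 13.07 in CON and 10.84 in KO (-2.22), and Casp4, its relative, 7.93 and 6.19. Of 34 detected genes of apoptosis 9 (26.5%, beside 18.4% of all genes, and 5 to 12 genes across alternatives in normalization and probe rule) were lower and 2, Casp14 of cornification (5.74, not detected, and 10.18) and the mitotic Birc5 (8.11 and 10.03), were higher, and what these higher genes are known for is cornification and division rather than death. Of 34 detected genes of interferon response and antigen presentation 13 were lower, with Ifi47 at 8.19 and 6.50 and Oasl2 at 9.53 and 8.27, and 1, Irgm1, was higher. Irgm1 had probes that disagreed, at 1.14 and -1.27. Of 20 detected complement and coagulation genes 9 were lower and 1, F13a1, was higher (7.29 and 9.35), with C4b at 9.22 and 7.80. The lysosomal lipase Lipa had 8.50 and 6.07, while Ctse, a cathepsin of skin immune cells and other epithelia, had 6.63 and 11.15.

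Markers of other cell types differed between the pools in both directions, and their part in the lists above was not tested. Of 36 detected endothelial and pericyte genes 21 were lower and 2 higher (median -0.81), with a summed level of 54595 in CON and 36167 in KO. Flt1, a receptor of vascular growth factor, had 11.13 and 9.72, its ligand Vegfa 11.70 and 10.32, and the pericyte gene Rgs5 10.37 and 9.09, whereas Lyve1 of lymphatic vessels was detected in KO only (5.66 and 7.34). Osteoclast genes were lower in 5 of 6 and higher in none (summed level 21296 and 9670), with Ctsk at 13.76 and 12.60, and their defining receptors Tnfrsf11a and Calcr were detected on neither array. Odontoblast and bone genes were lower in 9 of 20 and higher in none (151100 and 122518). Skeletal muscle genes were higher in 13 of 28 and lower in 4 (78859 and 117767). Fast-fibre genes such as Mylpf (11.72 and 13.63) and Myh4 (6.75 and 9.08) were higher, while Mb, the myoglobin of oxidative fibres, was lower (12.27 and 9.78). Melanocyte genes were higher in 9 of 13 (10262 and 30127), mast cell genes in 5 of 7 (622 and 2603) and adipocyte genes in 6 of 9 (3727 and 6794). None of these 3 lists had a lower member, but 7 of the 13, 5 of the 7 and 4 of the 9 were detected in KO only. The detection rule left those genes without the chance of a lower call. The melanocyte regulator Mitf, the pigment enzyme Tyr, the mast cell receptor chain Ms4a2 and the fat droplet gene Plin1 were detected on neither array. Macrophage and lymphocyte genes were higher in 3 of 25 and lower in 4 (20240 and 20753), and the globin Hba-a1 was level at 14.32 in both.

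Where a gene had several probes, their calls did not always match. Of 2380 genes with 2 or more detected probes, 1006 had at least 1 probe called higher or lower, and among these all probes had the same call in 380, some probes were not called in 619 and the calls were opposite in 7. At the edge of detection, the probes of Ppip5k2, Arhgap28 and Sox8 just passed the threshold on the KO array (p-value of 0.00877), with intensities of 5.83 to 5.84 there, and were not detected in CON, so none of them carries a fold. Those of Rbpjl and Pnck on the KO array and Zfp948 on the CON array just missed it at 0.01003.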

How the data were processed

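Med1 fl/fl mice with and without K14-Cre were compared at Mat, with 1 Illumina mouse bead array for each genotype and tissue of 3 mice in each. The authors deposited raw probe intensity with a detection p-value beside it, exported from GenomeStudio (version not given in the sources used here), and a normalized table of intensity. Intensities of all 6 deposited arrays at 4 weeks were background corrected, quantile normalized and put on the log2 scale with neqc of limma 3.58.1 (R 4.3.3, offset 16), and the rest was computed with Python 3.11.15, pandas 2.3.3 and numpy 2.4.6. Arrays of other ages were not analysed here. The brightest probe stood for a gene. Of 25697 probes 23978 carry a symbol, 23962 of which match RefSeq, and 1719 carry none. With 1 array for each group no test was possible, and the number of arrays limits the precision. The members and the 68 gene lists were chosen with earlier results of these data known.

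Genes were named by a rule: the 10 largest differences each way where neither array missed the gene, the 5 brightest seen on 1 array only, the 5 brightest of each array, up to 6 members of each list by size of difference, with up to 3 against its majority and up to 2 bright members not called, genes named in the study, the 3 on each side of the detection threshold and the 5 widest probe disagreements. Named outside it, after their values were seen, were sex-linked genes, members of neighbouring runs, markers not detected, and Axin2, Ccnd1, Cenpa, Cers2, Dlx2, Egfr, Elf5, Gpc1, Gpx2, Gpx3, Gstm1, Gstm5, Igf1, Itgb1, Itgb4, Kif23, Krt27, Krt8, Lef1, Mcm5, Msx2, Mt1, Mt3, Nfe2l2, Nfib, Notum, Nqo1, Orai1, Slc34a2, Tnc, Wnt3a, Wnt4, Wnt5a, Wnt7a, Xpr1 and Zfp750. Alternatives covered the normalization, background, offset, detection and fold thresholds and the probe rule. Scripts were tested on simulated data.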

Additional observations from a re-analysis of the deposited data

Results flagged for a closer look

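Some named genes were called in opposite directions in KO at Mat and at the secretory stage (Sec), each stage with 1 pooled array for each genotype, and the difference between the stages was not tested. Higher at Mat and lower at Sec were the cell cycle genes Ccnd1 (1.16 at Mat, -0.98 at Sec), Cdc20 (2.34 and -0.72), Cdk1 (1.97 and -0.70) and Kif23 (1.27 and -0.65). At Sec their CON values were the brighter ones, for example 10.52 in CON and 9.80 in KO for Cdc20. Dlk1 (1.76 at Mat, -2.54 at Sec) and Notum (0.71 and -0.88) ran the same way.

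Lower at Mat and higher at Sec were the developmental genes Fgf1 (-1.20 at Mat, 0.90 at Sec), Nkx2-3 (-1.45 and 0.97), Wnt4 (-0.65 and 0.97) and Wnt7a (-0.78 and 0.65). The enamel protease Mmp20 had -0.71 at Mat and 0.74 at Sec, and the coactivator Ppargc1a -1.97 and 0.66. Krt16 (-1.30 at Mat and at least 3.07 higher at Sec) and Serpinb12 (-1.60 and 0.96) of stratified epithelium did likewise. Xist had -1.18 at Mat and was at least 2.59 higher at Sec, where it was not detected in CON (5.38) and had 8.72 in KO. Xist was thus detected in the CON pool at Mat and not at Sec. At Sec the Y-linked Eif2s3y (-1.29) and Kdm5d (-1.24) were lower in KO and Uty (-0.55) was not called. The part of the sex of the pooled mice in the opposite calls was not tested.

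Of the 1719 probes without a gene symbol, which entered no comparison, 747 were detected on either Mat array. Of these 77 were detected in KO only and 27 in CON only, and 100 were higher and 146 lower in KO, with 12 higher by 4 or more on the log2 scale.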

How the results depend on the processing

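With the deposited normalized values 926 genes were lower in KO, as with quantile normalization and no background correction (926), against 1694, and 857 were higher against 1163, with 48.1% of the called genes higher against 40.7%. Raising the fold to 2 left 679 higher and 586 lower genes, so that 53.7% of the called genes were higher. With no lowest value set for an undetected side, 1390 genes were higher and 1774 lower (43.9% higher). Common-median scaling gave 1082 higher and 1993 lower (35.2% higher) and moved the median of all genes from -0.14 to -0.21. No gene was called in opposite directions by the main setting and any alternative run. The median of a list moved in 27 comparisons with an alternative and stayed close in 517. The difference of Irgm1 was 1.14 for its brightest probe and -0.10 for the mean of its probes. No paired analysis was possible because each genotype had 1 array, and for the same reason no array could be left out. Of the probes, 46.1% were detected in CON and 49.8% in KO, and where a probe was not detected the difference rests on the lowest detected value, which in 309 genes pointed away from the array that detected the gene.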
